A study of Mus musculus with 6 samples.

Results

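Endothelial cells line the blood vessels that grow into the fetal cerebral cortex. Their transcripts were followed here through 10 marker genes, Pecam1, Cdh5, Kdr, Flt1, Tek, Tie1, Cldn5, Esam, Egfl7 and Eng. They were taken by gene name from the series' table of TPM, a unit in which reads are divided by transcript length and every sample is then brought to the same total. The table has 56198 entries, of which 14518 carried a name, averaged 1 TPM or more and were tested. All 10 endothelial genes are in the table and all 10 passed that filter. The samples were total RNA of the fetal cerebral cortex of C57BL/6 mice at E14.5 (embryonic day 14.5). The Ctr group is 3 samples from fetuses whose dams breathed 100% O2 for 6 h. The Sevo group is 3 samples from fetuses whose dams breathed 2.5% sevoflurane, an inhaled anaesthetic, in 97.5% O2 for 6 h, so both groups were exposed to high oxygen. The number of fetuses and litters behind each sample was not found in the labels or methods, so the p-values measure only the spread between these samples, which may be technical. The cortex was frozen as whole tissue without sorting. In such bulk RNA, fewer endothelial cells and less RNA per endothelial cell cannot be told apart.

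Vessels invade the cortex from a plexus in the overlying meninges, guided by Vegfa, which neural progenitors secrete and which hypoxia induces through HIF (hypoxia-inducible factor). Vegfa acts on Kdr (VEGFR2), the main signalling receptor, while Flt1 (VEGFR1) binds Vegfa tightly and in its soluble form acts as a decoy. The ETS family of transcription factors, which recognise a GGAA core, drives many endothelial genes. Endothelial cells of the brain are joined by tight junctions rich in Cldn5 and build the blood-brain barrier.

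Sequences from RefSeq were looked up to show the start regions of these genes, and 7 of the 10 had a promoter entry (GRCm38.p6). Pecam1, Cdh5 and Esam had none. The GGAA core, read on both strands as GGAA or TTCC, was counted in the 250 bases before each start. It was found in 93.4% of 32851 mouse promoters of the same length, with a median of 3 and a ninetieth percentile of 5 per promoter, so its presence alone sets no gene apart. The windows of the endothelial genes held 7 cores for Tie1, 4 for Kdr, 4 for Flt1, 3 for Eng, 2 for Tek and 0 for Cldn5, and the 3 starts of Egfl7 held 5, 3 and 1. The longer motif CAGGAAG, which contains the core, was in 10.8% of all promoters and in 2 of the 3 Egfl7 windows. Of the HIF core only the form ACGTG was counted, which was in 16.6% of all promoters and in no window of an endothelial gene. Other forms of that core were not counted, so their share of all promoters is unknown. Among the endothelial windows, those of Kdr and Flt1 hold the form GCGTG, read on both strands. Of the 2 Vegfa starts, the one that is printed held no ACGTG, and the other (chr17:46025164-46025413, minus strand), which lies within the gene, held 1. The windows of Eng (chr2:32646345-32646594, plus strand) and Cldn5 (chr16:18776597-18776846, plus strand) are printed because they contrast a start with 3 cores and a start with none, and that of the outer Vegfa start (chr17:46032378-46032627, minus strand) because the endothelial genes are set against it. Capitals mark the GGAA or TTCC cores.
Eng: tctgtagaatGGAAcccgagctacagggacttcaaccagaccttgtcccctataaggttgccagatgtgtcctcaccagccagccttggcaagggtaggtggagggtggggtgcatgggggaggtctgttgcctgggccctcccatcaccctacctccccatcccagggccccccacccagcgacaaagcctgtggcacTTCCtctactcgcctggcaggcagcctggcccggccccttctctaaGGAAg
Cldn5: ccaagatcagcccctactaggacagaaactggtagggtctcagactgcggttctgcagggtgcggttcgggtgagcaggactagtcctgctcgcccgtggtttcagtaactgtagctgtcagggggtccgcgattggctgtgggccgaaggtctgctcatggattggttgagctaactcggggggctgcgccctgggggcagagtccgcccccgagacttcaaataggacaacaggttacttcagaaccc
Vegfa: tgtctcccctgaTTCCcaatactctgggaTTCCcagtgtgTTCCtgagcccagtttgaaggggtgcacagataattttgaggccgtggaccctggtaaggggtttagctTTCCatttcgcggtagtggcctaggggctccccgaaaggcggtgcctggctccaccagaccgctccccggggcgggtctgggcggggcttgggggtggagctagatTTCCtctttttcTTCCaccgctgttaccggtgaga

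Egfl7 carries a microRNA within its gene, miR-126a, which is abundant in endothelium. Its 3p mature sequence (chr2:26591402-26591423, plus strand, GRCm38.p6) is printed because reads of its precursor fall inside Egfl7, and capitals mark the seed, bases 2 to 8. The miR-126a entry of the table is listed at 0 in every sample, as is that of miR-126b, so the TPM of Egfl7 say nothing of the mature microRNA.
mmu-miR-126a-3p: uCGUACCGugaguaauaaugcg

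None of the 10 endothelial genes was called different between the groups. No gene among them passed an adjusted p of 0.05 (limma on log2(TPM + 1), Benjamini-Hochberg over all genes tested), where 0.00689% of all genes passed in the lower direction and 0% in the higher. No gene among them had an unadjusted p under 0.05 either, against 6.56% of all genes in the higher and 12.8% in the lower direction. The groups overlapped in all 10, whereas 27.1% of all genes had groups that did not overlap, 9.43% with Sevo higher and 17.7% with Sevo lower. The log2 fold change of Sevo against Ctr was negative in 6 genes and positive in 4, with a median of -0.13, beside -0.06 over all genes, of which 58.9% were negative. Esam, one of the 6, was positive at 0.0308 after median centring. A single library, Ctr replicate 2, had the highest TPM of all 6 samples in 8 of the 10 genes. Over all genes it was the highest sample in 15.7%, Ctr replicates 1 and 3 in 14.1% and 17%, and Sevo replicates 1, 2 and 3 in 13.1%, 22.5% and 17.6%.

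The receptors of Vegfa had unlike levels and ranges. Kdr (chromosome 5, 75932827 to 75978458, minus strand, GENCODE M21 on GRCm38) was at 6.66, 9.92 and 6.46 TPM in Ctr replicates 1, 2 and 3 and at 6.18, 6.54 and 6.20 TPM in Sevo replicates 1, 2 and 3. Apart from Ctr replicate 2 all samples lay within 1 TPM of each other, and the groups overlapped. The means were 7.68 ± 1.94 TPM in Ctr and 6.31 ± 0.202 TPM in Sevo (SD, n = 3 each), a log2 fold change of -0.23 with a 95% interval from -0.65 to 0.20 and an adjusted p of 0.535 from limma.

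Flt1 (chromosome 5, 147561604 to 147726011, minus strand) was the gene in which a single library mattered most. It was at 1.94, 30.73 and 3.59 TPM in Ctr and at 2.74, 2.50 and 2.25 TPM in Sevo. Ctr replicate 2 was 8.56 times the next highest sample, whereas Ctr replicates 1 and 3 lay on either side of every Sevo sample. The log2 fold change was -1.11 ± 0.77 (SE), its interval ran from -2.89 to 0.67, and the adjusted p from limma was 0.470. Without Ctr replicate 2 it was -0.07. TPM per gene do not separate the soluble from the membrane form of Flt1.

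Tek (TIE2) is the receptor of the angiopoietins, which steady or loosen vessels, and Tie1 is its partner receptor. Tek (chromosome 4, 94739289 to 94874976, plus strand) had the lowest mean of the endothelial genes, with 2.12, 4.43 and 1.83 TPM in Ctr and 2.47, 2.94 and 2.72 TPM in Sevo. The 3 Sevo samples lay between Ctr replicate 2 and the other Ctr samples, and the log2 fold change was 0.03 with an interval from -0.59 to 0.65 (limma, adjusted p = 0.964). Tie1 (chromosome 4, 118471191 to 118490061, minus strand) was at 5.10, 7.20 and 4.95 TPM in Ctr and at 5.48, 7.31 and 6.68 TPM in Sevo. It was one of the 2 genes whose highest sample was not Ctr replicate 2, since Sevo replicate 2 was slightly higher. Its log2 fold change was 0.16 with an interval from -0.28 to 0.59 (limma, adjusted p = 0.684).

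Among the genes of cell contacts, Pecam1 (CD31), an adhesion molecule of endothelial borders, had nearly equal group means. Pecam1 (chromosome 11, 106654217 to 106750628, minus strand) was at 8.28, 12.79 and 8.86 TPM in Ctr and at 9.08, 10.01 and 10.60 TPM in Sevo. All Sevo samples lay above Ctr replicates 1 and 3 and below Ctr replicate 2, which left a log2 fold change of 0.01 with an interval from -0.41 to 0.42 (limma, adjusted p = 0.981). Cdh5 (VE-cadherin; chromosome 8, 104101625 to 104144511, plus strand), the cadherin of endothelial adherens junctions, was at 6.43, 11.11 and 6.04 TPM in Ctr and at 5.08, 6.86 and 5.48 TPM in Sevo. The groups overlapped through Sevo replicate 2, and the log2 fold change was -0.34 ± 0.24 (SE) with an interval from -0.89 to 0.20. Its adjusted p of 0.463 from limma was the lowest of the 10.

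Esam (chromosome 9, 37528078 to 37538319, plus strand), an adhesion molecule at endothelial tight junctions, was at 7.24, 12.04 and 6.65 TPM in Ctr and at 7.63, 7.59 and 8.65 TPM in Sevo. Like Pecam1, its Sevo samples all lay above Ctr replicates 1 and 3 and below Ctr replicate 2, and its log2 fold change was -0.07 with an interval from -0.57 to 0.43 (limma, adjusted p = 0.894). Cldn5 (claudin-5; chromosome 16, 18776847 to 18778262, plus strand), the main claudin of the blood-brain barrier, was at 24.76, 31.08 and 21.08 TPM in Ctr and at 25.06, 20.53 and 36.19 TPM in Sevo. Both the lowest and the highest sample were Sevo samples, so the groups overlapped fully. Cldn5 had a log2 fold change of 0.06 with an interval from -0.45 to 0.58 (limma, adjusted p = 0.901).

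Egfl7, a secreted protein of the vessel matrix, and Eng (endoglin), a coreceptor for TGF-beta and BMP ligands, complete the set. Egfl7 (chromosome 2, 26580014 to 26593120, plus strand) was at 19.65, 40.98 and 21.68 TPM in Ctr and at 26.26, 25.64 and 17.20 TPM in Sevo, so that a Sevo sample was the lowest and Ctr replicate 2 the highest. The log2 fold change was -0.19 with an interval from -0.85 to 0.46 (limma, adjusted p = 0.751). Eng (chromosome 2, 32646595 to 32682669, plus strand) was at 6.43, 9.49 and 6.66 TPM in Ctr and at 7.08, 5.02 and 6.71 TPM in Sevo. Its log2 fold change was -0.22 with an interval from -0.68 to 0.23 (limma, adjusted p = 0.573). Exons of Egfl7 overlap those of Agpat2 and Gm20532, and exons of Eng overlap those of Fpgs, and without strand information the reads of such neighbours cannot be told apart. Agpat2 was at 0.37 to 2.04 TPM. Gm20532 was at 0.47, 2.48 and 1.61 TPM in Ctr and at 2.22, 9.07 and 5.57 TPM in Sevo, and thus most abundant in Sevo replicates 2 and 3. Fpgs, at 13.52 to 14.32 TPM in Ctr and 16.90 to 23.43 TPM in Sevo, was more abundant than Eng and was highest in Sevo replicate 2, where Eng was lowest.

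**Figure D1:**
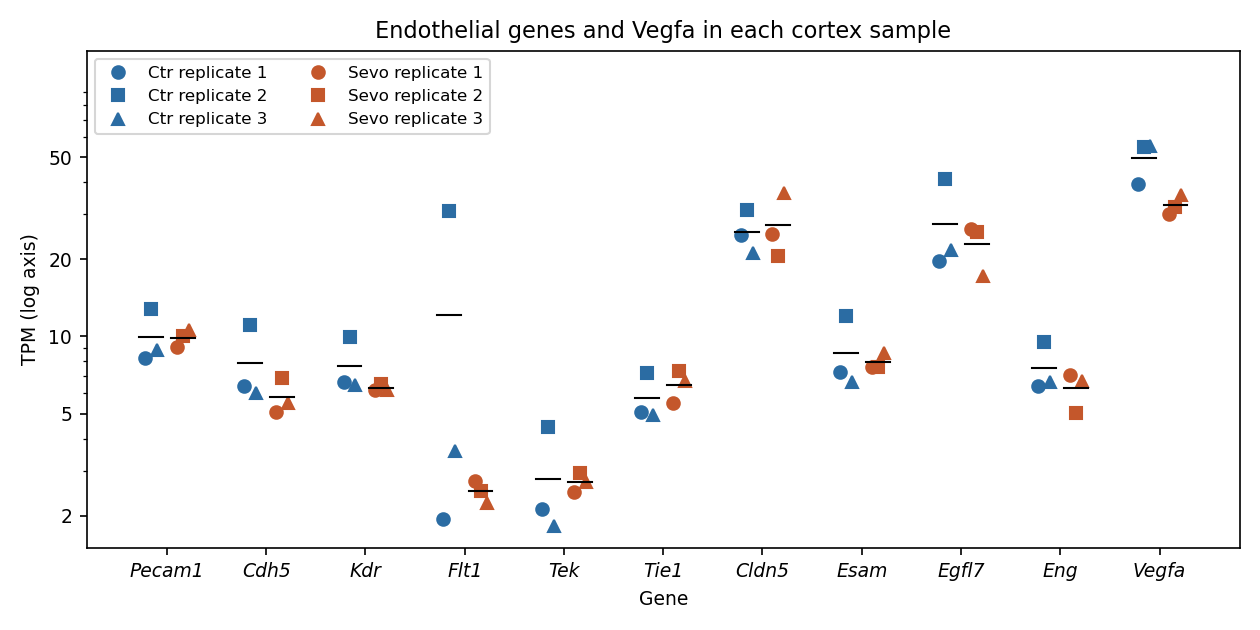
TPM on a log axis of the 10 endothelial genes and of Vegfa in each sample; circles, squares and triangles are replicates 1, 2 and 3, blue is Ctr, orange is Sevo and black lines are group means. The blue square, Ctr replicate 2, is the highest point in 8 of the 10 endothelial genes and stands at 30.73 TPM in Flt1, while the groups of Vegfa do not overlap.

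In order of level, Cldn5 and Egfl7 came first with means of 26.5 and 25.2 TPM over the 6 samples, and their ranges overlapped. Even their lowest sample, at 17.20 TPM, was above the highest sample of Pecam1, at 12.79 TPM. Pecam1 (9.94 TPM), Esam (8.30), Flt1 (7.29), Kdr (6.99), Eng (6.90), Cdh5 (6.83) and Tie1 (6.12) followed in mean TPM, each neighbour in that order overlapping the next in range. The mean of Flt1 was set by Ctr replicate 2, without which its samples lay between 1.94 and 3.59 TPM, in the range of Tek. Tek was last at 2.75 TPM, and its highest sample was below the lowest of Tie1.

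Leaving out Ctr replicate 2 changed the sign of the median. The median log2 fold change of the 10 genes was then 0.15, beside -0.05 over all genes, with 6 genes positive and 4 negative. The values ran from -0.10 for Cdh5 to 0.32 for Tek, and Tie1 (0.31), Cldn5 (0.21), Pecam1 (0.19), Esam (0.17) and Egfl7 (0.13) were also positive. No gene passed in this fit either, the lowest adjusted p from limma being 0.526 and the lowest unadjusted p 0.165. Across the 5 remaining samples the highest TPM of a gene was between 1.08 and 1.85 times its lowest.

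**Figure D2:**
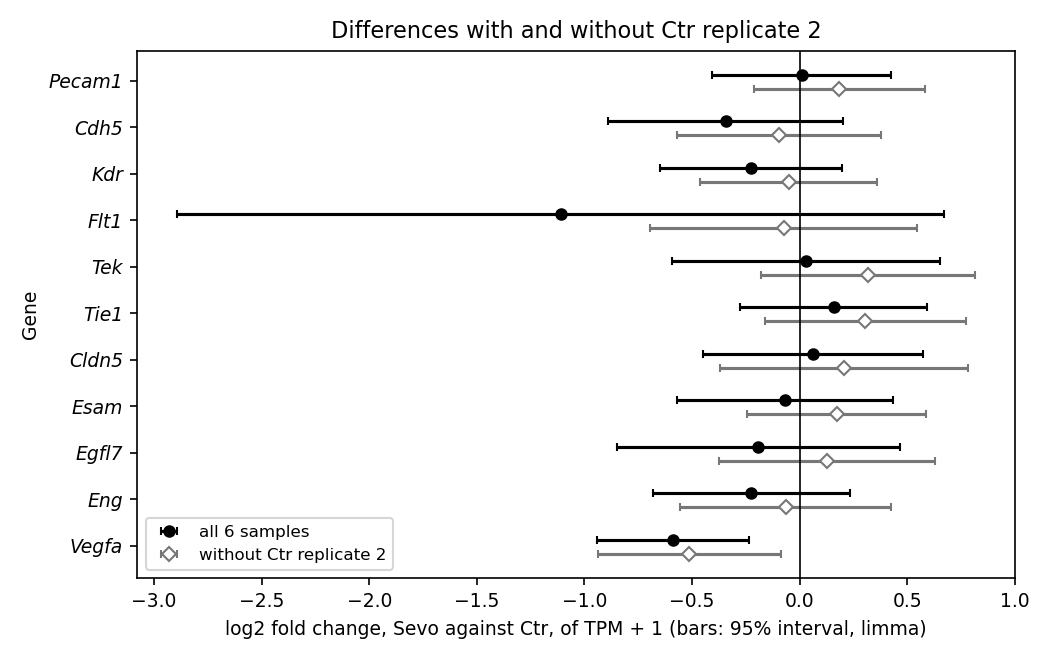
Log2 fold change of Sevo against Ctr on log2(TPM + 1) for the 10 endothelial genes and Vegfa, with bars for the 95% interval from limma; filled points use all 6 samples and open points leave out Ctr replicate 2. Every interval of an endothelial gene spans 0 in both fits, and the interval of Flt1 shrinks from -2.89 to 0.67 to the width of the others, whereas that of Vegfa stays below 0.

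The sums over the 10 genes show how far Ctr replicate 2 stood apart. They were 88.6, 170 and 87.8 TPM in Ctr and 97.1, 94.9 and 103 TPM in Sevo. Without Flt1 they were 86.7, 139 and 84.2 TPM in Ctr and 94.3, 92.4 and 100.4 TPM in Sevo, so the other 9 genes also placed Ctr replicate 2 above the rest. In the 7 genes other than Flt1 that were highest there, the excess over the next highest sample was between 1.21 and 1.62 times. Apart from Ctr replicate 2, the summed TPM of every Sevo sample was above that of every Ctr sample, a spread of 87.8 to 103 TPM. The share of all genes with that order was not computed. In a list of 35 other pan-endothelial genes the sums of the same samples overlapped. They were 130 and 134 TPM in Ctr replicates 1 and 3 and 140, 132 and 126 TPM in Sevo.

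Ctr replicate 2 also had the highest levels of markers of tissues next to the cortex. The 8 meningeal fibroblast markers summed to 110 TPM there and to between 5.10 and 24.4 TPM in the other samples, and all 8 were highest there. A list of 11 choroid plexus epithelium markers, added after the values of this library had been seen, summed to 806 TPM there and to between 5.93 and 32.8 TPM elsewhere, with 10 of the 11 highest there. Most of that sum was Ttr (transthyretin, the abundant secreted protein of the choroid plexus), at 734 TPM against 0.48 to 19.55 TPM in the other samples, while Folr1, Kcnj13 and Cldn2 were at 0 in some samples. The part that these tissues had in the endothelial levels of Ctr replicate 2 was not tested. Pericyte markers summed to 88.1 TPM in Ctr replicate 2 and 52.9 to 66.2 TPM elsewhere, vascular basement membrane genes to 237 TPM against 148 to 202 TPM, and microglia markers to 69.0 TPM against 46.7 to 63.5 TPM. Of 8 neuron markers 0 were highest there, beside 15.7% of all genes, and they summed to between 2987 and 3534 TPM over all samples. Of 16 HIF targets tested, 8 were highest there, and that list summed to 1274 TPM there and to between 904 and 1156 TPM elsewhere. Radial glial progenitor markers summed to 2571 TPM there and to between 1967 and 2509 TPM elsewhere, with 2 of 8 highest there.

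**Figure D3:**
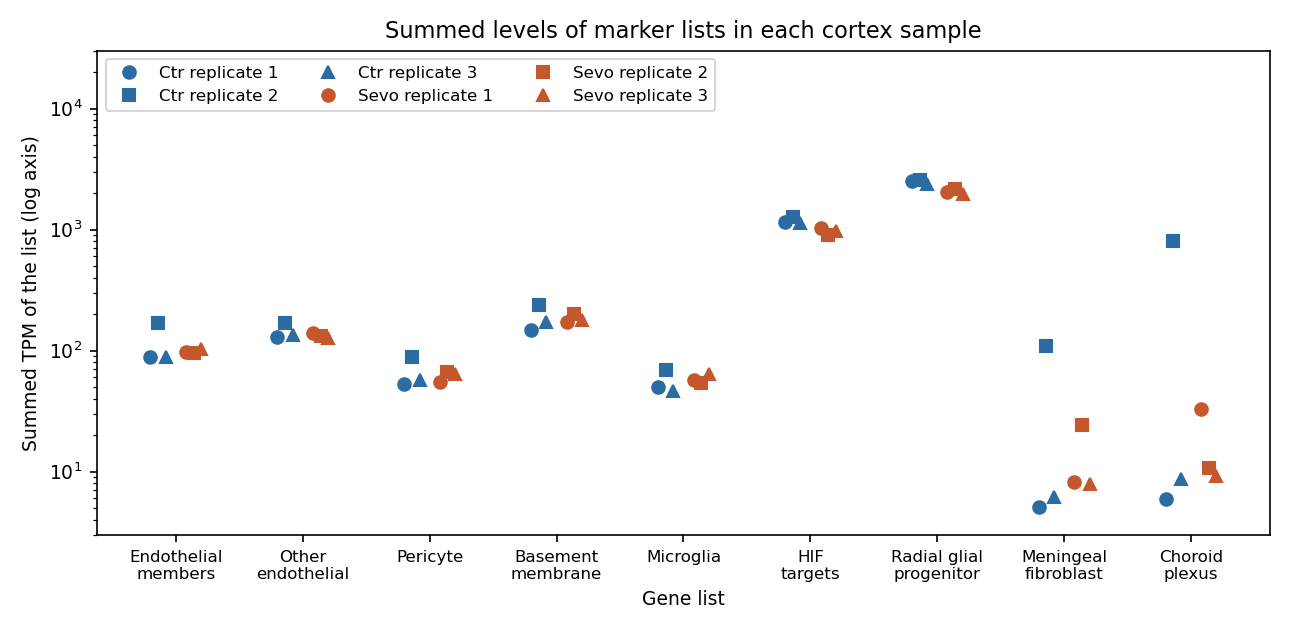
Summed TPM on a log axis of 9 gene lists in each sample; circles, squares and triangles are replicates 1, 2 and 3, blue is Ctr and orange is Sevo. The blue square, Ctr replicate 2, is at 806 TPM for the choroid plexus list and at 110 TPM for the meningeal fibroblast list, and at 170 TPM, above all other samples, for the 10 endothelial genes.

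The endothelial genes moved together across samples mainly through that library. Over the 45 pairs of the 10 genes, the Pearson correlation of log2(TPM + 1) had a median of 0.75 across all 6 samples and of -0.13 across the 5 samples without Ctr replicate 2. The pairs over 0.8 numbered 16 and then 4. The samples share their total of TPM, and their number is small, so these values only describe the 6 libraries. Esam (r = 0.98), Tek (0.93), Pecam1 (0.92), Flt1 (0.91) and Kdr (0.91) followed the mean of the other 9 most closely. Without Ctr replicate 2, Esam (0.90), Pecam1 (0.87), Tek (0.85) and Tie1 (0.72) still had a positive correlation with the other 9, as did Cldn5 (0.25), whereas Kdr (-0.60), Eng (-0.46), Flt1 (-0.43), Cdh5 (-0.37) and Egfl7 (-0.36) were on the negative side.

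Set against the median of the other 9 endothelial genes, Tie1, Tek and Pecam1 were narrowly higher in every Sevo than in any Ctr sample. On the log2 scale Tie1 was at -0.33, -0.67 and -0.36 relative to that median in Ctr and at -0.32, 0.08 and -0.01 in Sevo, a mean difference of 0.37. The mean difference was 0.22 for Pecam1 and 0.22 for Tek. The highest Ctr and the lowest Sevo sample were close, at -0.329 and -0.318 for Tie1. They were at -1.26 and -1.22 for Tek and at 0.40 and 0.49 for Pecam1. Each of the 3 had groups that did not overlap, with a two-sided exact permutation p of 0.1, the smallest that 3 against 3 samples allow. Genes outside the set were set against the median of all 10 endothelial genes, not of 9, so their shares are only roughly comparable. Their groups separated upwards in 10.3% and downwards in 0.593%. The median of the 10 was 3.65 in Ctr replicate 2 and 2.92 to 3.01 elsewhere. The other 7 overlapped, from -0.96 for Flt1 to 0.27 for Cldn5. This ratio was computed after the values had been seen.

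Genes whose pattern was most like the mean of the standardised endothelial values over the 6 samples were searched among 10024 protein-coding genes that averaged 5 TPM or more. They were Selenop (r = 0.999), Arl4a (0.987), Pltp (0.983), Fastk (0.977) and Dcn (0.977), and each was highest in Ctr replicate 2. As 8 of the 10 endothelial genes were highest there too, the search favoured genes with that peak. Selenop, a secreted selenoprotein, was at 10.69, 37.12 and 9.86 TPM in Ctr and at 12.36, 13.73 and 14.80 TPM in Sevo. Dcn (decorin), itself one of the meningeal fibroblast markers, was at 1.71, 28.29 and 2.81 TPM in Ctr and at 3.66, 4.15 and 3.47 TPM in Sevo. Of 26 other pan-endothelial genes tested, 7 had an r over 0.8 with the same mean and the median r of the 26 was 0.59, beside 0.998% and 0.07 among the genes searched. None of these values was recomputed without Ctr replicate 2.

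Vegfa itself was lower in every Sevo sample. It was at 39.14, 54.94 and 55.36 TPM in Ctr and at 29.91, 31.87 and 35.56 TPM in Sevo, so that the highest Sevo sample was below the lowest Ctr sample. The means were 49.8 ± 9.25 TPM and 32.4 ± 2.87 TPM (SD, n = 3 each), and the log2 fold change was -0.59 ± 0.15 (SE) with an interval from -0.94 to -0.24. The unadjusted p from limma was 0.00505, the adjusted p was 0.124, and the two-sided exact permutation p was 0.1, the smallest possible. Vegfa thus did not pass over all genes. Without Ctr replicate 2 its log2 fold change was -0.51 (limma, adjusted p = 0.327).

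No correlation between an endothelial gene and Vegfa passed its permutation test. Of 10 relations computed, the Pearson correlation of log2(TPM + 1) with Vegfa was highest for Flt1 (r = 0.65, exact permutation p = 0.0722), Kdr (r = 0.63, exact permutation p = 0.124) and Cdh5 (r = 0.61, exact permutation p = 0.190). Eng (0.58), Egfl7 (0.35), Esam (0.32), Pecam1 (0.31), Tek (0.14) and Cldn5 (0.05) were also positive in r, and Tie1 was at -0.13. The Benjamini-Hochberg adjusted p over the 10 relations ranged from 0.618 to 0.929. Spearman's rho was 0.54 for Kdr, 0.43 for Cdh5, 0.37 for Flt1, 0.09 for Eng, -0.03 for Cldn5, -0.09 for Pecam1 and Egfl7, -0.26 for Tek and Esam and -0.43 for Tie1, with exact permutation p of 0.297 and above and an adjusted p of 1 in each.

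These correlations turned on Ctr replicates 2 and 3. Ctr replicates 2 and 3 had almost the same Vegfa level, yet in the median of the 10 endothelial genes on the log2 scale they were at 3.65 and 2.92. The other 4 samples lay between 2.92 and 3.01 whatever their Vegfa. When Ctr replicates 2 and 3, the 2 samples farthest from the median of Vegfa, were left out, the median r over the 10 genes went from 0.34 to -0.18, and r was positive in 4 of 10 instead of 9. Flt1 then had r = -0.996 over 4 samples, all of them between 1.94 and 2.74 TPM. Without Ctr replicate 2 alone, the median r was -0.31. It was -0.84 for Tek, -0.67 for Esam, -0.60 for Tie1, -0.39 for Pecam1, -0.36 for Egfl7 and -0.25 for Cldn5, and 0.54 for Flt1, 0.36 for Kdr, 0.23 for Eng and 0.22 for Cdh5. Without Ctr replicate 3 alone, the median r was 0.74 and all 10 were positive, with the highest for Kdr (r = 0.93, exact permutation p = 0.0417) and Cdh5 (r = 0.89, exact permutation p = 0.0583). The adjusted p over the 10 relations was then 0.292 or more, so no relation passed in either case. Over 5 samples or fewer the pairings are so few that a single relation could not pass alone. Because Vegfa separates the groups, r was also computed on values centred within each group. It then lay between 0.27 and 0.64, with an exact permutation p of 0.389 or more and an adjusted p of 0.889 in each. Permuting within groups allows no p below 0.0278, so here too a single relation could not pass alone.

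**Figure D4:**
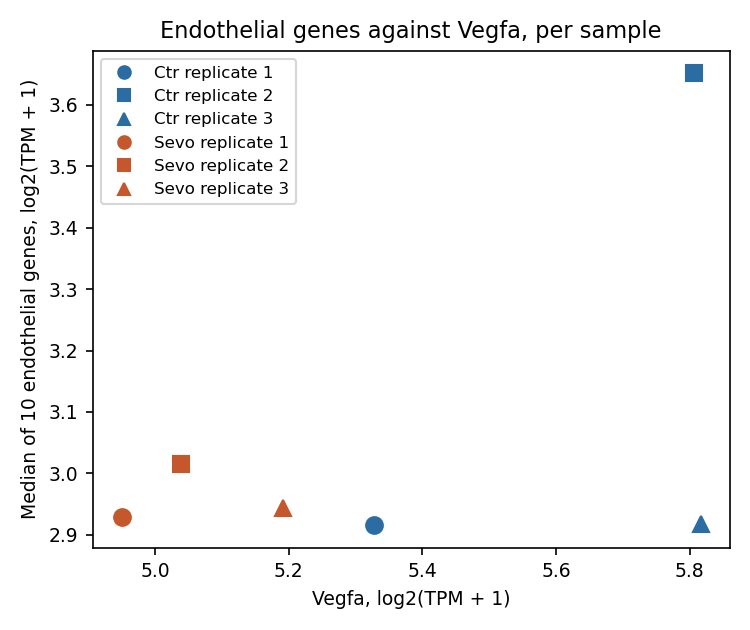
Median log2(TPM + 1) of the 10 endothelial genes against log2(TPM + 1) of Vegfa; each point is a sample, blue is Ctr, orange is Sevo, and circles, squares and triangles are replicates 1, 2 and 3. At nearly equal Vegfa, Ctr replicate 2 is at 3.65 and Ctr replicate 3 at 2.92, and the 3 Sevo samples, at the lowest Vegfa, are between 2.93 and 3.01.

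The other genes of the VEGF family were read from a list of 10 ligands, receptors and coreceptors, of which 8 were tested and 0 passed the adjusted p. At an unadjusted p under 0.05, 1 was lower, Vegfa, and 1 was higher, Pgf (placental growth factor, a ligand of Flt1), beside 12.8% and 6.56% of all genes. Pgf was at 2.05, 2.01 and 1.79 TPM in Ctr and at 3.43, 2.51 and 3.60 TPM in Sevo, with a log2 fold change of 0.49 (limma, adjusted p = 0.217), and its groups did not overlap. Vegfb, another ligand of Flt1, was at 35.97 to 39.60 TPM in Ctr and 40.33 to 44.47 TPM in Sevo. Nrp1, a coreceptor that neurons also express, was at 46.95 to 47.51 TPM in Ctr and 43.05 to 58.67 TPM in Sevo. Among the angiopoietin genes, Angpt1, a Tek agonist, was at 2.22 to 2.91 TPM in Ctr and 1.0 to 2.87 TPM in Sevo. Angpt2, which antagonises Tek in many settings, stayed below the filter, at 0.52, 2.11 and 0.80 TPM in Ctr and 0.37, 0.19 and 0.44 TPM in Sevo.

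Further endothelial genes were read from a longer list. Of 35 other pan-endothelial genes 26 were tested, and 0 passed the adjusted p. Their median log2 fold change was -0.08, and 0.04 without Ctr replicate 2. At an unadjusted p under 0.05, 1 was higher and 2 were lower, smaller shares than the 6.56% and 12.8% of all genes. Cyyr1, a membrane protein, was at 0.74, 1.0 and 0.56 TPM in Ctr and at 4.75, 1.70 and 2.85 TPM in Sevo. Its log2 fold change was 1.15 (limma, adjusted p = 0.124). With a mean of 0.767 TPM in Ctr, it passed the filter of 1 TPM only through Sevo. S1pr1, the sphingosine-1-phosphate receptor that steadies new vessels, was at 16.06, 15.71 and 17.44 TPM in Ctr and at 14.77, 11.01 and 7.12 TPM in Sevo, and Palmd was at 21.57 to 22.29 TPM and 15.37 to 20.97 TPM. In total, 15 of the 26 were highest in Ctr replicate 2, and the summed TPM of the list was 169 there and 126 to 140 elsewhere.

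Many cortical cells also express barrier and junction genes, and none of these genes passed the adjusted p. Of 16 blood-brain barrier transport genes, 14 were tested, and at an unadjusted p under 0.05, 2 were higher and 0 lower, beside 6.56% and 12.8% of all genes. Slc3a2, the heavy chain of the amino acid carrier that pairs with Slc7a5, was at 85.74, 90.28 and 89.40 TPM in Ctr and at 114.75, 126.03 and 112.80 TPM in Sevo, a log2 fold change of 0.41 (limma, adjusted p = 0.0939). Slc2a1 (GLUT1), the glucose carrier of the barrier, was at 35.32 to 39.56 TPM in Ctr and 31.20 to 41.00 TPM in Sevo. Of 12 junction genes tested, among them Cdh5, Cldn5, Esam and Pecam1, 2 were lower at an unadjusted p under 0.05, near the 12.8% of all genes. They were the scaffold gene Tjp1 (ZO-1), at 29.86 TPM or more in Ctr and at most 26.70 TPM in Sevo (log2 fold change -0.41, limma, adjusted p = 0.160), and the catenin gene Ctnnd1 (p120), with a log2 fold change of -0.33 (limma, adjusted p = 0.200). Of 15 Wnt pathway and transcription factor genes of brain endothelium, all tested, 0 had an unadjusted p under 0.05, beside 6.56% of all genes higher and 12.8% lower. Wnt7b, a neural ligand that instructs barrier formation, had a log2 fold change of 0.06.

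Notch and TGF-beta signals pattern arteries and steady the vessel wall, and neural cells use the same genes. In the endothelial Notch list, 4 of 11 genes were lower and 0 were higher when p was left unadjusted (under 0.05), beside 12.8% and 6.56% of all genes, with a median log2 fold change of -0.22. Jag1, a Notch ligand that neural progenitors also make, was at 4.57, 5.83 and 5.33 TPM in Ctr and at 2.62, 3.08 and 2.44 TPM in Sevo (log2 fold change -0.75, limma, adjusted p = 0.109). Hey1, a Notch target, had a log2 fold change of -0.50 and Efnb2, an arterial ephrin, of -0.33. The vessel-enriched Notch4 was at 4.01 to 6.20 TPM in Ctr and 4.03 to 16.60 TPM in Sevo. In the TGF-beta and BMP list, which holds Eng, 1 of 11 genes was higher and 1 was lower at that threshold, close to the same shares of all genes, the lower one being Smad5 (log2 fold change -0.38, limma, adjusted p = 0.114). Of 8 tip cell genes tested, 1 was lower at that threshold, a share close to the 12.8% of all genes. It was Adm (adrenomedullin, a vasoactive peptide and HIF target), at 1.65, 2.23 and 1.15 TPM in Ctr and 0.68, 0.62 and 0.28 TPM in Sevo. With a mean of 0.527 TPM in Sevo, Adm passed the filter of 1 TPM only through Ctr.

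HIF targets, the group to which Vegfa belongs, were read from a list of glycolytic, vascular and oxygen-sensing genes. Of 17, 16 were tested. All 16 had a negative log2 fold change with all 6 samples, beside 58.9% of all genes, with a median of -0.28. Car9, left untested by the filter, was higher in Sevo replicates 1 and 2. It was at 0.04, 0 and 0 TPM in Ctr and at 0.99, 1.28 and 0.04 TPM in Sevo. Slc2a1, which is in this list too, was at 0.0012 without Ctr replicate 2, 0.0464 after median centring and 0.0378 after quantile normalization, and the median without Ctr replicate 2 was -0.24. At an unadjusted p under 0.05, 7 were lower and 0 higher, beside 12.8% and 6.56% of all genes. In 7 the groups did not overlap, where 17.7% of all genes were lower without overlap. Vegfa itself is among the 7. So is Adm, which passed the filter of 1 TPM only through Ctr. None passed the adjusted p. Kdm3a, a histone demethylase, was at 77.23, 79.72 and 72.79 TPM in Ctr and at 50.32, 52.86 and 47.96 TPM in Sevo (log2 fold change -0.59, limma, adjusted p = 0.0746). Pfkfb3, a driver of glycolysis, had a log2 fold change of -0.78 (limma, adjusted p = 0.0913) and Ldha, lactate dehydrogenase A, of -0.34. Radial glial progenitor markers, of cells that also make Vegfa, summed to 2509, 2571 and 2390 TPM in Ctr and to 2061, 2168 and 1967 TPM in Sevo, without overlap. Fabp7 and Vim made up most of these sums. Of the 8 markers only 1, Fabp7, had groups that did not overlap. The log2 fold change was negative in 6 of the 8, and positive in Sox2 (0.28) and Slc1a3 (0.06). At an unadjusted p under 0.05, 2 of these 8 progenitor markers were lower and 0 higher, beside 12.8% and 6.56% of all genes. None passed the adjusted p. The part that these progenitors had in the levels of Vegfa and the HIF targets was not tested.

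Cells that wrap or surround the vessels gave mixed values. Of 11 pericyte markers tested, 1 was on the higher and 1 on the lower side at an unadjusted p under 0.05, beside 6.56% and 12.8% of all genes, with a median log2 fold change of -0.04. The higher one was Higd1b, at 0.70, 1.63 and 1.11 TPM in Ctr and 3.66, 2.71 and 3.91 TPM in Sevo (log2 fold change 1.06, limma, adjusted p = 0.103). The lower one was Notch3, the Notch receptor of mural cells, at 11.46 to 14.77 TPM in Ctr and 8.69 to 10.61 TPM in Sevo (log2 fold change -0.44, limma, adjusted p = 0.180). In the 10 vascular basement membrane genes 0 had an unadjusted p under 0.05, beside 6.56% of all genes higher and 12.8% lower, and the median log2 fold change was 0.02. Col4a1, a collagen chain of that membrane, had a log2 fold change of 0.25. In the 5 flow and activation genes tested 0 had an unadjusted p under 0.05, too few genes to tell apart from the shares of all genes just given. Sele and Selp, which inflamed endothelium induces, were at 0 in some samples.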

How the data were processed

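Total RNA of 6 fetal cortex samples, 3 Ctr and 3 Sevo, grouped by their labels, was analysed. The deposited TPM values were computed per gene by the authors, with a program that the sources do not name. Bowtie 0.12.2, edgeR and the builds mm8 and mm10 stand in the submitters' processing notes, and the authors' methods name DESeq2, which needs counts. The values are not counts, so limma was used instead. TPM keep no depth, so the reads behind a value are unknown and no counting interval is given. Between 14485 and 15193 entries per sample reached 1 TPM, and mitochondrial genes took 7.89% to 9.13%. Gene names turned into dates (27) were restored by identifier, and 662 entries without a name were left out.

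Named genes averaging 1 TPM or more were fitted as log2(TPM + 1) with limma 3.58.1 in R 4.3.3 (eBayes with trend, two-sided, Benjamini-Hochberg over 14518 genes), which was tested on simulated data first. Fold changes on this scale understate the change of low genes. Exact permutation tests used all 10 splits, or all 720 pairings for correlations, in Python 3.11.15 with SciPy 1.17.1. Alternatives were pseudocounts of 0.1 and 0.01, no filter, a minimum of 5 TPM, median centring, quantile normalization, rescaling without mitochondrial and haemoglobin genes, the replicate block, other eBayes settings, sample weights, an adjusted p under 0.01 and each sample left out. Positions came from GENCODE M21 on GRCm38, matched by identifier for 99.8% of named genes, and sequences from RefSeq. The TPM may rest on another annotation.

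The endothelial genes and all lists were chosen with earlier results of these data known. All 10 endothelial genes and Vegfa were named. From each other list, genes past the adjusted p, up to 4 at an unadjusted p under 0.05 without overlap and up to 2 of the most abundant could be named, and not all of them are. The 5 genes most like the set were taken by correlation. Vegfb, Angpt1, Angpt2, Notch4, Car9, Sox2, Slc1a3, Sele, Selp, Folr1, Kcnj13, Cldn2, and the neighbours of Egfl7 and Eng fall outside the rule. They were named after their values were seen.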

Additional observations from a re-analysis of the deposited data

How the results depend on the processing

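The endothelial genes passing an adjusted p of 0.05 numbered 0 in each direction under every alternative run, and 0 of the 10 relations with Vegfa passed under any. With 4 or 5 samples, or permuting within groups, a single relation could not pass alone, so these alternatives say little. Over 4 samples Flt1 at r = -0.996 still had an adjusted p of 0.417 from the permutation test. The median log2 fold change of the endothelial genes lay between -0.25 (without Ctr replicate 3) and 0.15 (without Ctr replicate 2). It was -0.03 after median centring and -0.05 after quantile normalization, and was -0.07 without Flt1, an alternative added after seeing the data. Over all genes, 0 were higher and 1 lower. Sample weights gave 1 higher, and leaving out a sample gave 0 to 3 higher and 1 to 4 lower, the most without Sevo replicate 1. With the replicate number as a block 0 were higher and 1 lower, and 0 endothelial genes passed. Same-numbered samples did not deviate together (correlations of -0.02, 0.02 and 0.01), so the numbers give no pairing.

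Directions that turned were all of small or unsupported values, and the cause was not tested. The log2 fold change of Esam was 0.0308 after median centring. That of Slc2a1 was 0.0464 after median centring and 0.0378 after quantile normalization. With each sample left out in turn, the log2 fold change ran from -0.10 to 0.19 for Pecam1, from -0.15 to 0.32 for Tek, from -0.15 to 0.24 for Cldn5, from -0.21 to 0.17 for Esam, from -0.38 to 0.13 for Egfl7 and from -0.15 to 0.0375 for Slc2a1. The correlation with Vegfa then ran from -0.39 to 0.67 for Pecam1, from -0.84 to 0.72 for Tek, from -0.60 to 0.30 for Tie1, from -0.25 to 0.45 for Cldn5, from -0.67 to 0.85 for Esam and from -0.36 to 0.58 for Egfl7. After median centring it was -0.0034 for Tek and -0.0659 for Cldn5, after quantile normalization -0.0942 for Cldn5, and centred within groups 0.44 for Tie1. Without both samples farthest in Vegfa it was -0.31 for Pecam1, -0.996 for Flt1, -0.56 for Tek, -0.0459 for Esam and -0.81 for Egfl7. Spearman's rho with Vegfa, positive for Kdr (0.54) and Eng (0.09) with all 6 samples, also turned. For Kdr rho was -0.14 after median centring and -0.03 after quantile normalization, and for Eng it was -0.03 after each. Turns of rho with samples left out are not listed. Depth is unknown, so its limit on the low genes cannot be given.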
